A study of Mus musculus with 128 samples.

Results

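Hepatocytes taken at postnatal day 14 (P14) from C57BL/6 mice that carried Foxa3-Cre and 2 floxed Pard3 alleles (Foxa3-Cre;Pard3-fl/fl, labelled Pard3HMKO) were compared with hepatocytes of mice that carried Foxa3-Cre alone (labelled Pard3WT). Each group had 2 libraries of single cells, 35 and 24 cells in Pard3HMKO and 56 and 57 cells in Pard3WT, or 172 of the 4264 cells in the count table. The 4 libraries were picked by their names, under a rule that used no measured value, whereas the gene lists below were chosen with earlier results of these data known. All 4 libraries share Foxa3-Cre, whose promoter is known to be active from fetal life in the endoderm, which includes the hepatocyte lineage and the gut. Each count is the number of reads assigned to a gene in 1 cell by plate-based single-cell RNA sequencing, and the cells of a library were summed before any comparison. Pard3 libraries of the same line at E17.5, E19.5 and P0, with 2 libraries per genotype and age, serve below as a reference for age. Pard3WT libraries at P60 that carried TbgCre in place of Foxa3-Cre, taken before partial hepatectomy, serve as a reference for maturation.

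Pard3 encodes a scaffold of the PAR complex, which with atypical protein kinase C, PARD6 and CDC42 marks the apical side of an epithelial cell. In hepatocytes the apical side is the bile canaliculus, the channel between neighbouring cells into which bile acids, phospholipid and cholesterol are exported. The first weeks after birth are also the time in which mouse hepatocytes switch off fetal genes such as Afp, Igf2 and H19, slow their division, and gain the enzymes of amino acid, drug and bile acid metabolism.

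The 4 libraries held hepatocytes by their markers, and they differed in depth and in the sex-linked genes. Each of the 172 cells held reads for all 18 hepatocyte markers after each cell was thinned at random to 130000 reads. Libraries totalled 30775125 and 18894774 reads in Pard3HMKO and 27344150 and 22322803 reads in Pard3WT. The median cell held 884470 and 679870 reads in the knockout libraries against 491820 and 363500 in the controls, and at equal depth it held 6417 and 6530.5 genes against 5638 and 5454. Thus a knockout cell was sequenced more deeply, and it also held more genes once depth was equal. No 2 cells had identical counts.

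Xist, the RNA that coats the inactive X chromosome of females, was at 236 and 254 CPM (counts scaled to a common library size with TMM factors) in the Pard3HMKO libraries and at 1.79 and 1.54 CPM in Pard3WT. The Y-linked genes together gave 0.355 and 0.978 CPM in Pard3HMKO and 157 and 194 CPM in Pard3WT. In thinned cells, 35 of 35 and 20 of 24 knockout cells held Xist reads and no Y-linked read, while 46 of 56 and 50 of 57 control cells held Y-linked reads and no Xist. The other 4 knockout cells and 10 and 7 control cells held both. Both knockout libraries therefore read as female and both control libraries as male, and at P14 genotype and sex cannot be told apart. Of the genes on the X chromosome, 56 of 594 rose and 36 fell (15.49% called), against 1495 rises and 1294 falls among 15703 autosomal genes (17.8%). Because the labels do not say whether the 2 libraries of a group came from separate animals, the p-values measure the spread between libraries, which may be technical.

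Pard3 itself was at 40.6 and 32.1 CPM in Pard3HMKO and 41.8 and 43.9 CPM in Pard3WT, a log2 difference of -0.24 ± 0.21 (SE) with an adjusted p of 0.534 in edgeR's quasi-likelihood test with Benjamini-Hochberg adjustment. The whole-gene count does not separate the floxed exons from the rest, so it does not check the deletion. Foxa3, whose promoter drives Cre in all 4 libraries, was at 156 and 158 CPM in the knockout and 245 and 198 in the control, and its fall by 0.49 ± 0.12 (adjusted p = 0.00241) was lost without Pard3WT library 1 (-0.33, adjusted p = 0.14).

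Reads of other cell types were present in every library. Summed markers of macrophages gave 125.7 and 213 CPM of all reads in Pard3HMKO and 212 and 353 in Pard3WT, and 0 of 17 differed by the test. Neutrophil markers summed to 193 and 352 against 447 and 44.6 (0 of 12 called), erythroid markers to 167 and 244 against 699 and 264 (0 of 14), and endothelial markers to 27.2 and 24.4 against 45.5 and 59.4, with Stab1 the 1 of 15 called, upward, a call lost without Pard3HMKO library 1 or Pard3WT library 2. Lymphocyte markers summed to 4.48 and 12.8 against 78.1 and 5.55 (0 of 9 called). Stellate cell and fibroblast markers were highest in Pard3HMKO library 1, at 284 CPM against 58.4 in library 2 and 28.7 and 64.2 in the controls, and 2 of 14, Acta2 and Tagln, rose. In that library 1 cell gave 91.9% of the Acta2 reads and 64.0% of the Tagln reads, and neither gene was called without the library. Cholangiocyte markers were at 115 and 73.8 against 32.3 and 25.6. The cholangiocyte keratin Krt7 had no read in any of the 4 libraries. At equal depth, 21 of 35 and 17 of 24 knockout cells and 24 of 56 and 18 of 57 control cells held reads for at least 50% of 1 such list. For macrophage markers these were 20 and 9 knockout cells and 2 and 6 control cells, for neutrophil markers 7 and 13 against 4 and 0, and for erythroid markers 2 and 5 against 19 and 12. More knockout than control cells thus held at least 50% of the macrophage list, although its summed levels overlapped between the groups. The part of these reads in the results was not tested, but the P14 comparison was repeated without the marked cells.

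Between the groups, 3094 of 18572 genes tested passed an adjusted p of 0.05 (16.7%), of which 1670 were higher in Pard3HMKO (8.99% of all genes) and 1424 lower (7.67%). The median log2 fold change over all genes tested was 0, and 4906 genes had an unadjusted p below 0.05. These shares are the background against which the gene lists below are read. The lists were chosen with earlier results of these data known, so their counts describe the lists and are no independent test. Without the cells that held markers of other types, 3549 genes were called, 2545 of them among the 3094. For 9010 genes (48.5%) the 2 values of 1 group lay entirely above the 2 of the other, and for a single gene on its own an exact test of 2 against 2 cannot go below p = 0.333.

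The 8 largest rises were Plat, Cxcl10, Sprr1a, Elf3, Timp1, Xist, Hamp and Saa2, and apart from Xist they were uneven between the 2 knockout libraries. Cxcl10, an interferon-induced chemokine, was at 640 and 57.7 CPM in Pard3HMKO and 0.407 and 0.482 in Pard3WT. Sprr1a, a cornified envelope protein also made by injured cells, was at 534 and 38.4 CPM against 0.488 and 0.337. Both were above the controls in each knockout library, by 9.61 ± 1.73 and 9.41 ± 1.60 log2 units (adjusted p = 0.000264 and 0.000778), yet 1 cell gave 81.3% of the Cxcl10 reads of Pard3HMKO library 1 and 50.3% of its Sprr1a reads. Timp1, an inhibitor of matrix metalloproteinases, was at 43.3 and 14.4 CPM against 0.244 and 0.0963 (7.35 ± 1.29, adjusted p = 7.05e-05), and 18 of 35 and 11 of 24 thinned knockout cells held a read of it against 1 of 56 and 1 of 57 control cells. Hamp, the iron hormone hepcidin, was at 249 and 41.3 CPM against 1.42 and 1.40 (6.68 ± 1.23, adjusted p = 0.000343), with reads in 18 and 11 thinned knockout cells and 7 and 4 control cells. Reads of Hamp were concentrated as well, with 2 cells holding at least 50% of them in each knockout library, against 3 and 4 cells for Timp1.

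Elf3, an epithelial transcription factor, was at 30.5 and 6.45 CPM in Pard3HMKO and 0.0813 and 0 in Pard3WT, where 2 reads were found in all, a ratio of summed levels of 486 (95% counting interval 134 to 4019). Plat, tissue plasminogen activator, was at 22.6 and 1.44 CPM and had no read in Pard3WT, at least 182-fold higher (floor of 3 reads over the group). Saa2, an acute phase apolipoprotein, was at 120 and 16.2 CPM against 0.976 and 0.434. In Pard3HMKO library 1 a single cell gave 86.0% of the Plat reads and 63.4% of those of Saa2. The Plat call (adjusted p = 0.00700) was lost without Pard3HMKO library 1 (adjusted p = 0.119), Pard3WT library 1 (0.0797) or Pard3WT library 2 (0.0768), and that of Saa2 (6.58 ± 1.53, adjusted p = 0.0047) without the same libraries (log2 values 4.51, 7.29 and 6.12, adjusted p = 0.19, 0.051 and 0.087).

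Among the largest falls were Extl1, Adm2, the Y-linked Eif2s3y, Uty and Ddx3y, and Fgf21. Fgf21, a hormone that hepatocytes release in fasting and suckling, was at 2.09 and 0.921 CPM in Pard3HMKO and 248 and 199 in Pard3WT (fall by 7.17 ± 0.73, adjusted p = 3.51e-07). Adm2, a peptide of the calcitonin family, had 1 read in the knockout group and 512 in the control, a ratio of 512 (95% counting interval 91.5 to 20263). Both genes were near 0 in both knockout libraries and well above it in both controls. Extl1, an exostosin-like glycosyltransferase, had no read in Pard3HMKO and was at 13.3 and 11.2 CPM in Pard3WT, at least 186-fold lower. The Extl1 call (adjusted p = 0.00985) was lost without either knockout library (adjusted p = 0.099 and 0.088). Its level stayed lower in those fits.

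Cholesterol synthesis rose as a whole. All 24 of the 24 genes listed passed the test upward in Pard3HMKO, with a median log2 fold change of 2.88, beside 8.99% of genes and a median of 0 over all genes tested. Left out 1 library at a time, 23 to 24 rose and the median stayed between 2.70 and 3.17. Without cells that held markers of other types, or without cells that held at least 8 of 24 G2 and M phase genes at equal depth, 23 rose. Sc5d, which introduces a double bond late in the pathway, was the smallest change of the list (0.35 ± 0.10, adjusted p = 0.0169), and it was the member not called in each fit with 23, such as without Pard3WT library 2 (0.30, adjusted p = 0.16), Pard3HMKO library 1 (0.35, 0.0713) or Pard3HMKO library 2 (0.35, 0.0804).

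Srebf2, the transcription factor that turns the pathway on when sterols are low, was at 37.6 and 30.7 CPM in Pard3HMKO and 6.59 and 2.50 in Pard3WT (2.89 ± 0.25, adjusted p = 1.11e-10). Hmgcs1, which makes HMG-CoA, was at 1082 and 538 CPM against 76.2 and 83.8 (3.34 ± 0.19). No knockout library overlapped a control library at either gene, although Pard3HMKO library 1 was higher than library 2 at both. Among the later enzymes, Fdps, which makes farnesyl diphosphate, was at 317 and 261 CPM against 12.2 and 14.0 (4.47 ± 0.17, adjusted p = 2.81e-18). Sqle, squalene epoxidase, was at 98.5 and 69.5 CPM against 4.47 and 4.29 (4.26 ± 0.16, adjusted p = 2.09e-19). Cyp51, the lanosterol demethylase, was at 220 and 138 CPM against 6.91 and 4.67 (4.94 ± 0.21, adjusted p = 1.79e-18), the largest change of the list.

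Idi1, the isomerase of isopentenyl diphosphate, was at 71.5 and 40.5 CPM in Pard3HMKO and 2.11 and 2.02 in Pard3WT (4.76 ± 0.25), and Msmo1, a sterol methyl oxidase, at 243 and 142 CPM against 8.91 and 14.55 (4.04 ± 0.20). Insig1, which retains the sterol sensor in the endoplasmic reticulum and is itself switched on by SREBP, was at 833 and 411 CPM against 211 and 236 (1.48 ± 0.26, adjusted p = 0.00019), a smaller change from a higher control level, and was at a log2 value of 0.88 without Pard3HMKO library 1.

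**Figure D1:**
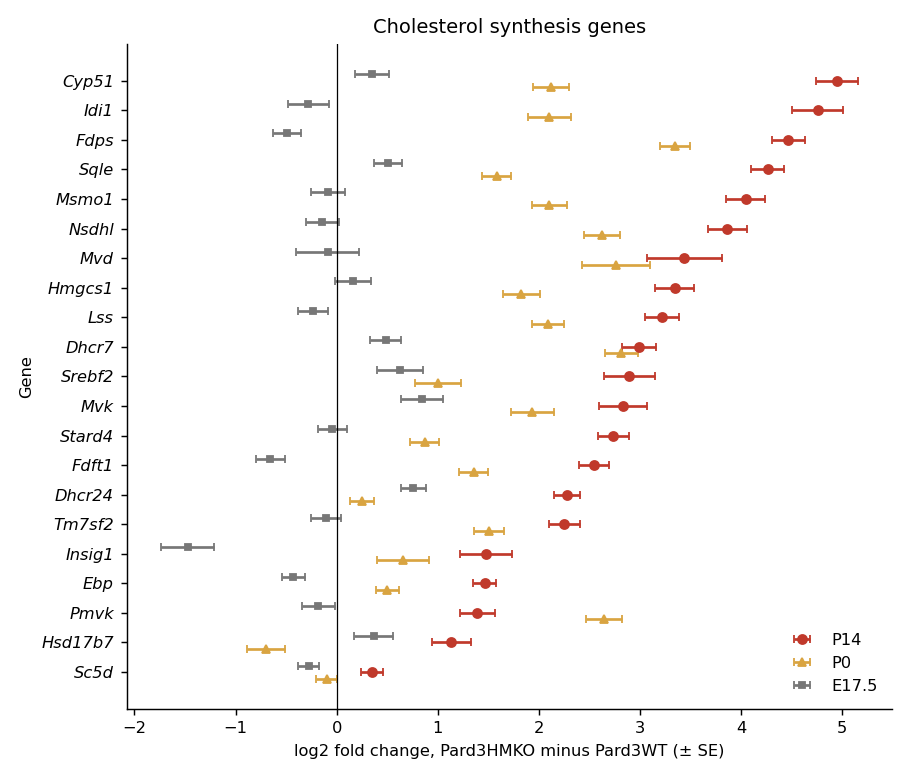
Log2 fold change, Pard3HMKO minus Pard3WT, of 21 of the 24 cholesterol synthesis genes (y axis) at P14 (red circles), P0 (yellow triangles) and E17.5 (grey squares), with bars of ±1 SE. At P14 all 21 points lie right of 0, from 0.35 for Sc5d to 4.94 for Cyp51, whereas the E17.5 points lie on both sides of 0.

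The promoters of these genes are shown because so many members moved together. They share the CCAAT pentamer, the site of the factor NF-Y, which is known to act beside SREBP at sterol genes. Promoter sequences came from RefSeq (GRCm38.p6), and the 250 bases before each start were searched on both strands for CCAAT (read as ATTGG on the other strand), for TTTGAA, the core of the cell cycle homology region, and for TCACNCCAC, a sterol regulatory element. Matches of different motifs can overlap by at most 1 base. CCAAT was present in 16 of the 16 cholesterol genes with an entry, in 18 of 20 genes of the G2 and M phase list and in 37.5% of all 27025 promoters. TTTGAA was present in 1 of 16 cholesterol genes, in 8 of 20 G2 and M phase genes and in 18.3% of all genes with an entry. TCACNCCAC was present in 1 of 16 cholesterol genes, Hmgcs1, and in 1.23% of all genes with an entry. The last 160 bases before the start of 3 of the genes are printed on their own strand, with capitals on CCAAT or ATTGG.
Cyp51, chr5:4104698-4104857, minus strand: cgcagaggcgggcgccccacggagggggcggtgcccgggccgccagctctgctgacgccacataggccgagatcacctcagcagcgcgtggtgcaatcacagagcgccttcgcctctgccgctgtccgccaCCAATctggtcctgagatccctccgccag
Msmo1, chr8:64733579-64733738, minus strand: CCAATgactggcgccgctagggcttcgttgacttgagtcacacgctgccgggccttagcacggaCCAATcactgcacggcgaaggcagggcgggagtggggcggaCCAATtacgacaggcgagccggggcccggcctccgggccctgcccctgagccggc
Idi1, chr13:8885446-8885605, plus strand: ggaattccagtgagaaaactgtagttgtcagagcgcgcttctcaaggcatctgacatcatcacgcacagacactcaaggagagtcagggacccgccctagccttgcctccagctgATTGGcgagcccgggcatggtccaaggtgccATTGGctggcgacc
Cyp51 holds 1 pentamer, 29 bases before its start, Msmo1 holds 3, at 160, 96 and 55 bases before it, and Idi1 holds 2, at 45 and 14 bases. A match of letters is a description of the sequence and was not measured as binding here.

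In single cells the pathway was raised across the population and not in a few cells. The summed list was between 892 and 14974 CPM of a cell in Pard3HMKO library 1 (median 3301) and between 1048 and 9560 in library 2 (median 2813). In Pard3WT it was between 414 and 2153 (median 963) and between 451 and 2191 (median 964). The highest control cell thus lay below the median cell of either knockout library. Sqle reads were found in 32 of 35 and 21 of 24 thinned knockout cells and in 10 of 56 and 12 of 57 control cells.

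**Figure D2:**
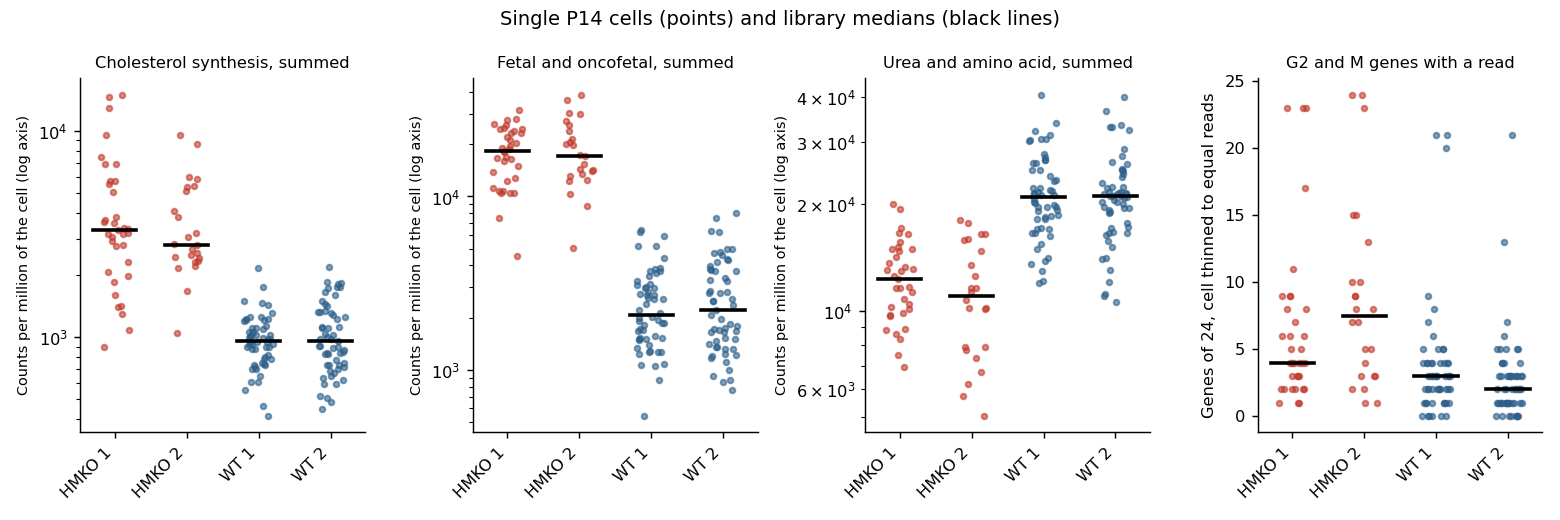
Each point is 1 P14 cell and each black line a library's median. The first 3 panels give the summed CPM of a list within the cell on a log axis (cholesterol synthesis, fetal and oncofetal, urea cycle and amino acid breakdown), and the last gives how many of 24 G2 and M phase genes had a read after thinning to equal reads. Median cholesterol sums are 3301 and 2813 in Pard3HMKO (HMKO, red) and 963 and 964 in Pard3WT (WT, blue).

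Fatty acid synthesis was split. Of 30 genes of lipogenesis and lipid droplets, 6 rose and 4 fell, with a median of -0.18. Srebf1, the paralogue of Srebf2 that drives fatty acid genes, was at 173 and 143 CPM in Pard3HMKO and 15.9 and 22.4 in Pard3WT (3.04 ± 0.21, adjusted p = 2.58e-13). Fasn, fatty acid synthase, was at 107 and 73.0 CPM against 13.6 and 15.7 (2.62 ± 0.17), and Acly, which supplies cytosolic acetyl-CoA to both pathways, was at 156 and 116 against 36.3 and 38.6 (1.86 ± 0.15). Elovl6, an elongase, rose by 2.12 ± 0.18. Against these, Thrsp, a lipogenic protein that responds to carbohydrate and thyroid hormone, was at 0.355 and 0.115 CPM against 34.0 and 24.6 (-6.87 ± 1.81, adjusted p = 0.00732), a call lost without Pard3HMKO library 1 (-7.94, adjusted p = 0.064) or library 2 (-6.35, 0.11). The other 3 falls of the list were Me1, Dgat2 and G0s2, and 2 genes fell without Pard3HMKO library 2.

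Lipoprotein genes changed in both directions. Of 21 tested, 8 rose and 6 fell (median -0.08), with 5 rises without Pard3HMKO library 1 and 5 without Pard3WT library 2. Apob, the structural protein of VLDL, was at 4143 and 3931 CPM in Pard3HMKO and 2624 and 2752 in Pard3WT (0.59 ± 0.07, adjusted p = 3.51e-08). Lpl, the lipoprotein lipase that the liver makes mainly before and soon after birth, was at 644 and 711 CPM against 312 and 320 (1.10 ± 0.11). Apoc3, which restrains that lipase, was at 882 and 699 CPM against 3572 and 3337 (-2.13 ± 0.20, adjusted p = 1.22e-09). Groups did not overlap at any of these 3 genes.

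Many fetal genes rose in the knockout. Of 23 fetal and oncofetal genes, 10 rose and 2 fell, with a median of 0.99, and 7 to 10 rose when 1 library at a time was left out. Afp, alpha-fetoprotein, was at 7421 and 9100 CPM in Pard3HMKO and 263 and 321 in Pard3WT (4.82 ± 0.15, adjusted p = 7.66e-17). Igf2, the imprinted fetal growth factor, was at 2222 and 2173 CPM against 167 and 166 (3.72 ± 0.08, adjusted p = 5.83e-27), and H19, the imprinted noncoding RNA beside it, at 8673 and 8524 against 1348 and 1605 (2.54 ± 0.09). The 2 libraries of a group agreed closely at these genes, and the groups were far apart. Peg3, another imprinted gene, was at 238 and 239 CPM against 38.7 and 34.0 (2.71 ± 0.14), and Hk2, the hexokinase of fetal and dividing cells, at 22.5 and 15.4 against 1.59 and 3.56 (2.90 ± 0.49). The other rises were Igf2bp1, Igf2bp3, Lin28b, Cdkn1c and Tff3. Cyp3a16, a cytochrome P450 listed because it is expressed around birth, fell by 1.62 ± 0.19 (39.4 and 35.9 CPM against 107 and 125), as did Aldoa.

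Afp was above the median control cell in every knockout cell, whereas 1 cell gave 73.5% and 82.1% of the Hk2 reads of the knockout libraries, and a Hk2 read was found in 5 of 35 and 4 of 24 thinned knockout cells and in 3 of 56 and 8 of 57 control cells. The lowest Afp level in a knockout cell was 726 CPM in library 1 and 1072 in library 2, while the median control cell was at 216 and 258 CPM and the highest at 1508 and 2097. Summed over the fetal list, cells lay between 4528 and 31409 CPM and between 5076 and 38771 in Pard3HMKO, and between 539 and 6390 and between 767 and 8048 in Pard3WT. The ranges overlapped only at the lowest knockout and highest control cells.

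Igf1 was lower in the knockout and Igfbp2 higher. Igf1, the growth hormone target that replaces Igf2 after birth, was at 671 and 779 CPM in Pard3HMKO and 2010 and 2008 in Pard3WT (-1.47 ± 0.44, adjusted p = 0.0212). Its call was lost without any 1 of the 4 libraries (log2 values from -1.58 to -1.37, adjusted p from 0.085 to 0.15), while the direction held. Igfbp2, a binding protein of both factors that is high in fetal liver, was at 2484 and 2602 CPM against 479 and 384 (2.56 ± 0.42, adjusted p = 9.13e-05). Of 18 genes of the growth hormone axis and the major urinary proteins, 1 rose and 3 fell (median -0.02), and without Pard3HMKO library 1, Pard3HMKO library 2 or Pard3WT library 1 only 1 fell. Most members of that list were therefore not called in either direction.

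**Figure D3:**
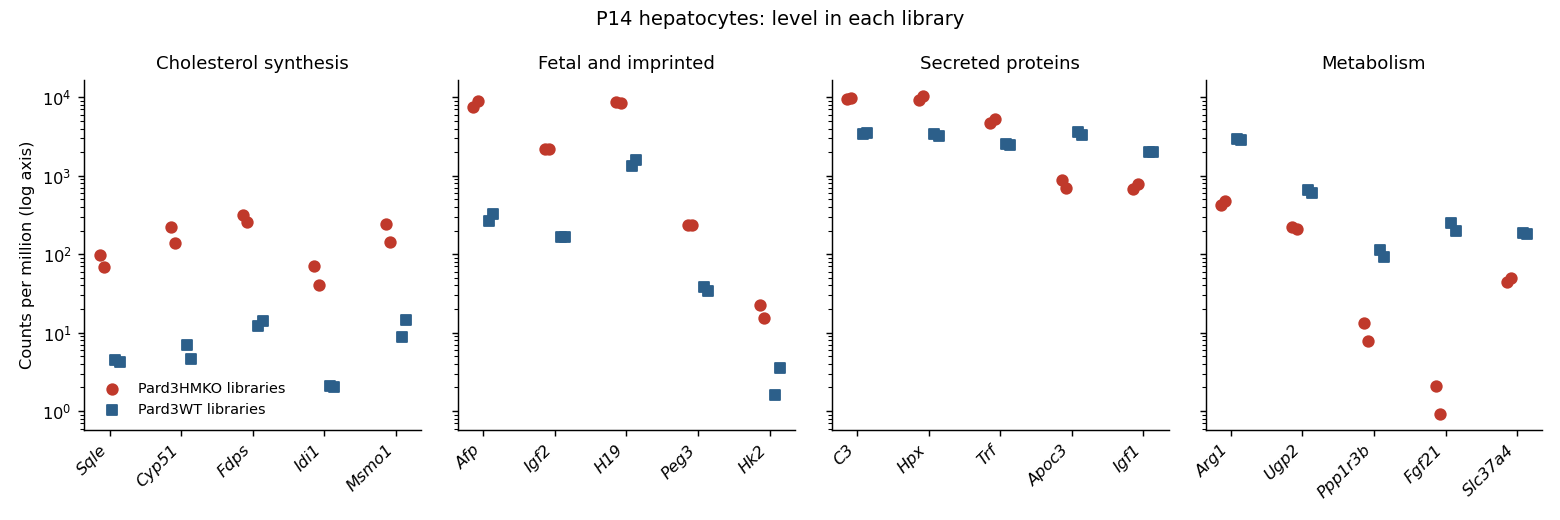
CPM on a log axis in each P14 library for 5 genes of cholesterol synthesis, 5 fetal genes, 5 secreted proteins and 5 metabolic genes; red circles are the 2 Pard3HMKO libraries and blue squares the 2 Pard3WT libraries. Afp sits at 7421 and 9100 against 263 and 321, and Fgf21 at 2.09 and 0.921 against 248 and 199.

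Many genes of amino acid breakdown fell. Of 29 genes of the urea cycle and amino acid breakdown, 14 fell and 1, Hgd, rose (median -0.60), and 11 to 14 fell when 1 library at a time was left out. Arg1, the arginase that releases urea, was at 428 and 480 CPM in Pard3HMKO and 2982 and 2874 in Pard3WT (-2.69 ± 0.21, adjusted p = 2.62e-10). Asl, the enzyme before it, was at 369 and 320 CPM against 825 and 803 (-1.24 ± 0.12). Cps1, which starts the cycle, was at 3426 and 3074 CPM against 6121 and 5959 (-0.89 ± 0.28, adjusted p = 0.0295), and its call was lost without any 1 library (log2 values from -0.97 to -0.82, adjusted p from 0.0956 to 0.198). All 3 urea cycle genes were lower in each knockout library than in each control.

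Gldc, of the glycine cleavage system, was at 64.9 and 71.1 CPM in Pard3HMKO and 157 and 147 in Pard3WT (-1.16 ± 0.14), and Gpt2, a mitochondrial alanine transaminase, at 70.5 and 79.2 against 219 and 187 (-1.44 ± 0.17). These falls were smaller than that of Arg1. In single cells the summed list had medians of 12286 and 11011 CPM in Pard3HMKO and 20928 and 21063 in Pard3WT, with overlapping ranges.

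Glucose and glycogen genes were lower in the knockout. Of 21 genes of gluconeogenesis and glycogen, 13 fell and 3 rose (median -0.84), and 9 to 11 fell and 1 to 2 rose when 1 library at a time was left out. Slc37a4, the glucose-6-phosphate transporter, was at 43.7 and 50.2 CPM in Pard3HMKO and 187 and 184 in Pard3WT (-1.98 ± 0.19, adjusted p = 5.39e-10). Ugp2, which makes UDP-glucose for glycogen, was at 225 and 209 CPM against 652 and 612 (-1.54 ± 0.15), and Ppp1r3b, which directs a phosphatase to glycogen, at 13.1 and 7.94 against 113 and 91.1 (-3.26 ± 0.32, adjusted p = 4.02e-09). Khk, the kinase that starts fructose breakdown, fell with them, at 97.8 and 110 CPM against 375 and 342 (-1.79 ± 0.19). Ppargc1a and Slc2a2 were among the rises.

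Glycolysis was mixed, with 8 rises and 4 falls among 24 genes (median 0.34). Rises numbered 5 without Pard3HMKO library 1, 5 without Pard3WT library 1 and 4 without Pard3WT library 2, and falls numbered 2 without Pard3HMKO library 2. Ndrg1, a gene induced by hypoxia, was at 13.48 and 8.0 CPM in Pard3HMKO and 1.83 and 1.30 in Pard3WT (2.78 ± 0.21, adjusted p = 3.24e-12), whereas Bnip3, a hypoxia-induced mitophagy receptor, was at 176 and 154 against 328 and 315 (-0.96 ± 0.13). Pklr, the liver pyruvate kinase, was at 5.39 and 8.06 CPM against 15.9 and 20.8 (-1.46 ± 0.26). The 2 hypoxia-induced genes thus moved in opposite directions.

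Genes of mitochondrial fuel use that passed the test mostly fell. Of 27 genes of fatty acid oxidation and ketogenesis, 8 fell and 2 rose (median -0.37), and of 30 genes of oxidative phosphorylation, 12 fell and 1 rose (median -0.17), with 8 to 9 and 8 to 10 falls when 1 library at a time was left out. Acadl, a long-chain acyl-CoA dehydrogenase, was at 261 and 232 CPM in Pard3HMKO and 433 and 420 in Pard3WT (-0.79 ± 0.09). Acaa2, the thiolase that ends each round of oxidation, was at 707 and 621 CPM against 1014 and 985 (-0.59 ± 0.08). Of the respiratory chain subunits, Ndufb5, of complex I, fell by 0.87 ± 0.11 (98.5 and 96.0 CPM against 185 and 172) and Cox4i1, of complex IV, by 0.51 ± 0.08 (583 and 516 against 835 and 730).

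Among enzymes of drug metabolism falls outnumbered rises. Of 33 xenobiotic cytochrome P450 genes, 11 fell and 2 rose (median -0.96). The number of falls was 4 to 6 when 1 library at a time was left out (4 without Pard3HMKO library 1, 6 without library 2, 5 without Pard3WT library 1 and 5 without library 2). Cyp3a44, higher in females in adult mice, was at 25.7 and 18.8 CPM in Pard3HMKO and 376 and 417 in Pard3WT (-4.15 ± 0.46, adjusted p = 2.18e-07), and Cyp2a22 at 63.5 and 73.6 against 305 and 306 (-2.16 ± 0.36). Cyp2c44, an arachidonic acid epoxygenase, was at 264 and 298 CPM against 33.0 and 33.4 (3.08 ± 0.19, adjusted p = 2.73e-14). Members of this family share sequence, so reads may be split among them in a way the counts do not show.

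Zonal genes were called on both sides of the lobule. Of 21 pericentral genes, 7 fell and 1 rose (median -0.80), and of 20 periportal genes, 4 fell and 4 rose (median -0.21). Whether the 2 lists differ was not tested, and only 3 pericentral genes fell without Pard3HMKO library 2, without Pard3WT library 1 or without Pard3WT library 2. Periportal falls numbered 2 without Pard3HMKO library 2 and 2 without Pard3WT library 2. Slc1a2, the glutamate transporter of the last cells around the central vein, was at 1.38 and 0.576 CPM in Pard3HMKO and 46.9 and 85.8 in Pard3WT (-6.06 ± 1.28, adjusted p = 0.000896). Oat, ornithine aminotransferase, was at 97.8 and 83.3 CPM against 280 and 389 (-1.88 ± 0.35), and Glul, the glutamine synthetase of the same cells, at 169 and 69.1 against 209 and 278 (-1.03 ± 0.22, adjusted p = 0.000667). Glul was not called without the cells that held markers of other types (-0.33, adjusted p = 0.229) and moved by over 1.5 times without Pard3HMKO library 1 (-1.82) or library 2 (-0.53). Its median cell was higher in the knockout, at 50.1 and 33.7 CPM against 19.6 and 26.7. In the controls 3 and 2 cells held at least 50% of the Glul reads, and 3 and 4 cells those of Oat. The median cell of Oat was lower in the knockout, at 8.19 and 8.69 CPM against 82.1 and 64.0. On the periportal side Cdh1, E-cadherin, was at 102 and 83.9 CPM against 23.8 and 27.8 (1.85 ± 0.20, adjusted p = 1.89e-08) and Hpx, hemopexin, at 9383 and 10508 against 3393 and 3175 (1.60 ± 0.12), while Arg1 and Gldc, listed there too, fell.

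Most bile acid genes that were called fell, and Cyp8b1 rose. Of 18 synthesis genes 8 fell and 3 rose (median -0.56), and of 20 transporters 5 fell and 1 rose (median -0.17), and without Pard3HMKO library 2 only 4 synthesis genes fell. Without Pard3WT library 1 only 1 synthesis gene rose. Cyp8b1, which makes cholic acid, was at 295 and 322 CPM in Pard3HMKO and 115 and 129 in Pard3WT (1.33 ± 0.27, adjusted p = 0.000401). Akr1d1, the reductase of the steroid ring, was at 181 and 158 CPM against 435 and 523 (-1.50 ± 0.27), Acox2, an oxidase of the side chain, at 161 and 144 against 295 and 290 (-0.94 ± 0.17), and Scp2, the thiolase that completes it, at 1748 and 1572 against 2954 and 2902 (-0.82 ± 0.08, adjusted p = 5.4e-10). These enzymes thus moved against Cyp8b1. Nr1h4, the bile acid receptor FXR, was at 69.5 and 68.1 CPM against 146 and 117 (-0.93 ± 0.27, adjusted p = 0.0127), a call lost without Pard3HMKO library 1 (-0.95, adjusted p = 0.0754), Pard3HMKO library 2 (-0.92, 0.0951) or Pard3WT library 1 (-0.76, 0.15).

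On the blood side of the cell, Slc10a1, the sodium-dependent bile acid importer NTCP, was at 404 and 386 CPM in Pard3HMKO and 1212 and 1076 in Pard3WT (-1.54 ± 0.31, adjusted p = 0.000713). Slco1a4, an organic anion importer, was at 4.79 and 8.12 CPM against 123 and 162 (-4.47 ± 0.67, adjusted p = 4.23e-05). At the canaliculus Abcb11, the bile salt export pump, was at 341 and 278 CPM against 194 and 168 (0.78 ± 0.18, adjusted p = 0.00174), a call lost without Pard3HMKO library 1 (0.62, adjusted p = 0.0526) or Pard3WT library 2 (0.68, 0.0501). The importers were lower and the pump higher in each knockout library.

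Genes that change as the liver matures were read in the study's controls. Hepatocytes of P60 Pard3WT mice with TbgCre, taken before partial hepatectomy, were compared with Foxa3Cre Pard3WT hepatocytes at P0, which called 5094 of 18777 genes (27.1%), and the 200 largest rises and 200 largest falls of that comparison, which uses no P14 library and differs in Cre as well as age, were followed at P14. Of the 200 falls, the genes that a maturing liver switches off, 87 rose in Pard3HMKO at P14 and 20 fell (median 1.04). Of the 169 tested among the 200 rises, 14 rose and 24 fell (median -0.84), and the remaining ones did not pass the filter on low counts. The hepatocyte maturation list chosen by hand had 10 falls and 4 rises of 29 (median -0.60), with 7 to 8 falls and 0 to 2 rises when 1 library at a time was left out (0 rises without Pard3HMKO library 1 or Pard3WT library 2). Fah, of tyrosine breakdown, was at 524 and 504 CPM against 869 and 803 (-0.70 ± 0.14), and Mat1a, which makes S-adenosylmethionine in mature liver, at 1770 and 1548 against 3502 and 3498 (-1.08 ± 0.21). Of 29 core hepatocyte transcription factors 3 fell and 0 rose (median -0.02), so the factors as a group were near the background. Albumin (Alb) was at 94670 and 105450 CPM in Pard3HMKO and 78847 and 74754 in Pard3WT (0.38 ± 0.12, adjusted p = 0.0306), a call lost without Pard3HMKO library 2 (0.30, adjusted p = 0.26), Pard3WT library 1 (0.42, 0.091) or Pard3WT library 2 (0.34, 0.21).

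Most genes of complement and coagulation rose. Of 28 tested, 18 rose and 1 fell (median 0.69), with 14 to 15 rises when 1 library at a time was left out. C3, the central complement protein, was at 9478 and 9837 CPM in Pard3HMKO and 3367 and 3497 in Pard3WT (1.49 ± 0.11, adjusted p = 4.51e-11). C1s1, a protease of the first complement component, was at 458 and 451 CPM against 223 and 181 (1.17 ± 0.12), and Cfi, which inactivates C3b, at 906 and 999 against 567 and 552 (0.77 ± 0.08). C8g, the small subunit of C8, fell from 501 and 429 CPM to 161 and 138 (-1.64 ± 0.16). Activators and an inhibitor of the cascade thus rose together. Fgb, the fibrinogen beta chain, was among the other rises, but its call was lost without any 1 of the 4 libraries (adjusted p from 0.527 to 0.705).

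Among acute phase genes rises outnumbered falls. Of 24 tested, 11 rose and 3 fell (median 1.11), and 5 to 8 rose when 1 library at a time was left out (7 without Pard3HMKO library 1, 8 without library 2, 6 without Pard3WT library 1 and 5 without library 2). A2m, alpha-2-macroglobulin, was at 28.3 and 34.5 CPM in Pard3HMKO and 3.70 and 3.42 in Pard3WT (3.13 ± 0.24, adjusted p = 1.39e-10). Itih3, an inhibitor chain that binds hyaluronan, was at 2351 and 2475 CPM against 1010 and 1016 (1.25 ± 0.16). Apcs, serum amyloid P, fell from 3525 and 3086 CPM to 919 and 840 (-1.91 ± 0.23, adjusted p = 1.38e-06), although it is itself an acute phase protein in mice. In contrast to Saa2, A2m and Itih3 were even between the knockout libraries.

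Iron genes changed in both directions. Of 21, 6 rose and 5 fell (median 0.25). Ftl1 and Fth1, the ferritin chains that store iron, were at 2482 and 2285 against 5682 and 5004 CPM (-1.16 ± 0.09, adjusted p = 5.77e-11) and at 2571 and 2525 against 5180 and 5090 CPM (-1.01 ± 0.11). Trf, the plasma carrier transferrin, was at 4683 and 5352 CPM against 2557 and 2436 (1.01 ± 0.16). Tfrc, the transferrin receptor, fell from 116 and 112 CPM to 35.3 and 31.8 (-1.76 ± 0.25), and Alas1, the first enzyme of haem synthesis, from 201 and 181 CPM to 45.6 and 28.7 (-2.36 ± 0.33, adjusted p = 2.63e-06). Hepcidin (Hamp), described above, rose while ferritin and the receptor fell.

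A few chemokine and cytokine genes rose. Of 19 chemokine and cytokine genes, 6 rose and 0 fell (median 1.90), with 2 to 5 rises when 1 library at a time was left out (2 without Pard3HMKO library 1). Without cells that held markers of other types 8 rose. At least 50% of the macrophage markers was found in more knockout than control cells, as given above. Cxcl1, a neutrophil attractant, was at 71.2 and 77.0 CPM in Pard3HMKO and 13.1 and 2.31 in Pard3WT (3.25 ± 0.65, adjusted p = 0.000665), with a log2 value of 5.00 without Pard3WT library 1. Icam1, an adhesion molecule for leukocytes, was at 42.2 and 7.83 CPM against 2.56 and 3.52 (3.05 ± 0.54), and not called without Pard3HMKO library 1 (1.37, adjusted p = 0.087). Of 26 interferon response genes, 2 rose and 0 fell (median 1.11), a share near the background, and without Pard3WT library 1 or library 2 none rose. H2-Q10, a secreted class I molecule of the liver, was at 1480 and 1324 CPM against 398 and 400 (1.81 ± 0.10, adjusted p = 1.41e-15), Tapbp, which loads class I molecules, at 128 and 124 against 40.3 and 30.1 (1.84 ± 0.35), and B2m, their common light chain, at 3021 and 2965 against 4177 and 3993 (-0.45 ± 0.06). Of 19 genes of antigen presentation, 5 rose and 1 fell (median 0.73). Class I genes are near-identical in stretches, and reads may be split among them.

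Many cell cycle genes rose. Of 24 genes of G2 and M phase, 17 rose and 0 fell (median 2.70), and of 24 genes of S phase, 11 rose and 0 fell (median 1.11). Cdk1, the mitotic kinase, was at 35.5 and 67.3 CPM in Pard3HMKO and 8.95 and 3.42 in Pard3WT (3.04 ± 0.62, adjusted p = 0.00105). Ccnb2, a cyclin that binds it, was at 45.1 and 68.6 CPM against 9.23 and 5.78 (2.91 ± 0.44, adjusted p = 1.7e-05), and Prc1, which bundles the central spindle, at 31.3 and 44.7 against 3.13 and 1.45 (4.03 ± 0.82, adjusted p = 0.000992). Pard3HMKO library 2 was the higher at each of these genes. The S phase helicase subunit Mcm6 was at 48.7 and 53.6 CPM against 16.3 and 20.3 (1.48 ± 0.20), and the primase subunit Prim1 at 20.0 and 18.1 against 5.73 and 5.92 (1.71 ± 0.28). Ccnd1, cyclin D1, which carries cells out of G1, was at 29.0 and 27.2 CPM against 9.15 and 6.65 (1.83 ± 0.22, adjusted p = 1.67e-07).

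The count of G2 and M phase genes depended on single libraries, with 16 called without Pard3HMKO library 1, 10 without library 2, 14 without Pard3WT library 1 and 5 without Pard3WT library 2. For S phase genes the corresponding counts were 8, 8, 9 and 5, and without cells in G2 or M phase 5 rose and 1 fell. Mki67, the proliferation marker, was at 52.0 and 68.9 CPM against 19.0 and 8.24 (2.14 ± 0.61, adjusted p = 0.0161) and was not called without Pard3HMKO library 2 (1.93, adjusted p = 0.0945) or Pard3WT library 2 (1.67, 0.22). The promoters of Cdk1 and Ccnb2 are printed in the same way as those above, with capitals on CCAAT or ATTGG and on TTTGAA.
Cdk1, chr10:69352913-69353072, minus strand: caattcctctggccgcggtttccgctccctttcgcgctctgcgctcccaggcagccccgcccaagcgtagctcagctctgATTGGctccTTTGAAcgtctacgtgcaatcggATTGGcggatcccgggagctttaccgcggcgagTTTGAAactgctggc
Ccnb2, chr9:70421555-70421714, minus strand: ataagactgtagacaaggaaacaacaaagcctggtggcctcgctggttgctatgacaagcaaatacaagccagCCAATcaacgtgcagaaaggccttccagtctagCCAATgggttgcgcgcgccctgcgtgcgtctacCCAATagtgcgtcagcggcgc
Cdk1 holds TTTGAA at 71 and 15 bases before its start and ATTGG at 80 and 48, and Ccnb2 holds CCAAT at 87, 54 and 21. The pair of motifs in the Cdk1 stretch is the arrangement known from cell cycle genes.

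Counted by cell, reads for at least 8 of the 24 G2 and M phase genes were found in 20 of 35 and 19 of 24 knockout cells and in 11 of 56 and 3 of 57 control cells (57.1%, 79.2%, 19.6% and 5.26%). At 130000 reads per cell these became 10 of 35 (28.6%, exact 95% interval 14.6 to 46.3), 12 of 24 (50%, 29.1 to 70.9), 5 of 56 (8.93%, 2.96 to 19.6) and 2 of 57 (3.51%, 0.428 to 12.1). With at least 12 genes asked for, the shares were 11.4% (3.20 to 26.7) and 25% (9.77 to 46.7) in Pard3HMKO and 5.36% (1.12 to 14.9) and 3.51% in Pard3WT. The knockout shares lay above the control shares at both limits, but at 12 genes the intervals of all 4 libraries overlapped, and at 8 genes those of Pard3HMKO library 1 and Pard3WT library 1 did. In the cells with at least 8 genes the median summed level of the list was lower in the knockout, at 261 and 255 CPM against 1420 and 1309. The lowest of these knockout cells were at 79.8 and 119 CPM, below the highest other cells of their libraries at 219 and 243. Holding 8 of the genes thus does not by itself place a cell in G2 or M phase. These intervals cover counting error within a library only. The median cell held 4 and 7.5 of the 24 genes in Pard3HMKO and 3 and 2 in Pard3WT, and every library had at least 1 cell with 21 or more. When the cells with at least 8 of the genes were left out, 3 of the 24 genes were still called upward and Prc1 was not (0.84, adjusted p = 0.705), while 23 of 24 cholesterol genes rose. Because those cells were chosen by reads of the same 24 genes, lost calls among the 24 are built into the choice. Of the 23 fetal genes 10 rose and 3 fell without these cells, and their median was 0.54 against 0.99 with them. Summed cholesterol genes were at a median of 4772 CPM in those cells and 3162 in the others in Pard3HMKO library 1, and at 3118 and 2510 in library 2.

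Some G1 regulators and p53 targets rose, and most were not called. Of 22 tested, 6 rose, 1, Cdkn1b, fell and 15 were not called (median 0.73). The median was between 0.40 and 1.25 when 1 library at a time was left out. Tnfrsf10b, a death receptor induced by p53, was at 11.2 and 10.6 CPM in Pard3HMKO and 0.203 and 0.385 in Pard3WT (5.21 ± 0.93, adjusted p = 8.49e-05). Bax, a pore-forming member of the BCL2 family, was at 33.5 and 40.7 CPM against 13.8 and 15.6 (1.33 ± 0.19), and Btg2, an antiproliferative gene, at 251 and 124 against 51.7 and 45.6 (1.95 ± 0.32). Groups did not overlap at these genes, although 1 cell gave 39.4% of the Btg2 reads of Pard3HMKO library 1.

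Most genes of the cytoskeleton list rose. Of 29 genes of actin, annexins and remodelling, 19 rose and 1, Actb, fell (median 1.26), and 14 to 16 rose when 1 library at a time was left out. Anxa2, which links actin to membranes, was at 165 and 177 CPM in Pard3HMKO and 12.2 and 13.2 in Pard3WT (3.75 ± 0.18, adjusted p = 7.66e-17), and S100a11, a calcium-binding protein that binds annexins, at 162 and 175 against 18.9 and 13.2 (3.39 ± 0.23). Tagln2, an actin-bundling protein, was at 69.0 and 51.9 CPM against 11.02 and 5.30 (2.88 ± 0.21), and Krt8, a keratin of simple epithelia, at 436 and 684 against 133 and 124 (2.12 ± 0.17). Groups did not overlap at these genes, although 1 cell gave 43.1% of the Krt8 reads of Pard3HMKO library 2. Actb was at 5678 and 5891 CPM against 9151 and 9413 (-0.68 ± 0.13, adjusted p = 0.000488), which is not called when library totals are used without the TMM factor.

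Among junction and polarity genes the changes were fewer. Of 27 genes of tight and adherens junctions, 7 rose and 1 fell (median 0.31). F11r, the junctional adhesion molecule to which PAR3 binds, was at 193 and 202 CPM in Pard3HMKO and 120 and 120 in Pard3WT (0.72 ± 0.16, adjusted p = 0.00100). The gap junction genes moved apart, with Gjb1 at 331 and 375 CPM against 244 and 231 (0.57 ± 0.13) and Gjb2 at 136 and 89.9 against 262 and 269 (-1.23 ± 0.20, adjusted p = 1.81e-05). Tjp1, Cdh1, Pvrl1 and Mllt4 were among the other rises. Of 25 genes of the apical polarity complex, 5 rose and 0 fell (median 0.17), with 2 to 6 rises when 1 library at a time was left out (2 without Pard3HMKO library 2 and 3 without Pard3WT library 2). Myo5b, the motor that carries vesicles to the canaliculus, was at 40.9 and 33.8 CPM against 7.08 and 9.97 (2.14 ± 0.33, adjusted p = 7.1e-06). Ezr, ezrin, which anchors actin to the apical membrane, was at 4.54 and 6.33 CPM against 2.11 and 1.59 (1.53 ± 0.35). Of the kinases of the PAR complex, Prkci, at 13.7 and 17.497 CPM against 13.46 and 6.12, and Prkcz, at 7.06 and 8.92 against 11.8 and 13.2, were not called. Cdc42, the GTPase of the complex, was at 167 and 178 against 136 and 129, and its call (0.38 ± 0.10, adjusted p = 0.00582) was lost without Pard3HMKO library 2 (0.33, adjusted p = 0.078) or Pard3WT library 2 (0.34, 0.085).

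Some markers of the biliary lineage rose in the knockout libraries. Of 12 cholangiocyte markers tested, 4 rose and 0 fell, and 2 rose without Pard3HMKO library 1, Pard3WT library 1 or Pard3WT library 2. Epcam, an adhesion molecule of biliary and fetal liver cells, was at 3.51 and 8.98 CPM in Pard3HMKO and 0.488 and 0.145 in Pard3WT (4.25 ± 0.91, adjusted p = 0.000866). Few cells carried it, with a read in 4 of 35 and 5 of 24 thinned knockout cells and 2 of 56 and 0 of 57 control cells, and 1 cell gave 62.6% and 64.1% of the reads of the knockout libraries. Sox9, a transcription factor of bile duct cells and a target of YAP, was at 85.6 and 42.1 CPM against 5.12 and 4.87 (3.68 ± 1.09, adjusted p = 0.0192), and 27 of 35 and 16 of 24 thinned knockout cells held a read of it against 10 of 56 and 10 of 57 control cells. Its call was lost without Pard3HMKO library 1 (3.07, adjusted p = 0.11), Pard3WT library 1 (3.72, 0.14) or Pard3WT library 2 (3.64, 0.15). Cldn7 was at 2.91 and 1.90 CPM and had no read in the controls. No cell of any library held reads for 50% of the cholangiocyte list at equal depth, and Krt7 was at 0 throughout. Of 25 YAP targets, 7 rose and 1 fell (median 0.88), but only 1 to 3 rose when 1 library at a time was left out (3 without each Pard3HMKO library, 3 without Pard3WT library 1 and 1 without library 2).

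Immediate early genes and a negative feedback gene of ERK signalling moved apart. Of 28 genes, 10 rose and 3 fell (median 1.04), and without Pard3HMKO library 1 the median was -0.12 with 6 rises and 5 falls. Junb and Jund, subunits of AP-1, were at 38.6 and 24.9 CPM against 9.15 and 5.92 (2.07 ± 0.27) and at 47.6 and 38.6 against 16.4 and 16.9 (1.37 ± 0.21). Hbegf, a ligand of the EGF receptor, was at 24.7 and 12.3 CPM in Pard3HMKO and 0.244 and 1.11 in Pard3WT (4.79 ± 0.82, adjusted p = 4.63e-05). Dusp6, the phosphatase that ERK induces against itself, was at 20.3 and 10.4 CPM against 67.1 and 83.4 (-2.28 ± 0.27, adjusted p = 1.31e-07), and Spry4 and Etv5, which respond in the same way, fell too.

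Among genes of defence against oxidants falls outnumbered rises. Of 24 genes of metallothionein and oxidative stress, 11 fell and 1, Gpx4, rose (median -0.50), with 7 to 9 falls when 1 library at a time was left out (7 without Pard3HMKO library 2 and 7 without Pard3WT library 2). Sod1, cytosolic superoxide dismutase, was at 2478 and 2098 CPM in Pard3HMKO and 6727 and 6391 in Pard3WT (-1.52 ± 0.09, adjusted p = 4.25e-13), and Cat, catalase, at 804 and 738 against 2028 and 2149 (-1.44 ± 0.11). Gstm1 and Gstm3, glutathione transferases, were at 1307 and 1344 against 4390 and 4361 CPM (-1.72 ± 0.11, adjusted p = 5.74e-14) and at 102 and 80.4 against 733 and 761 CPM (-3.03 ± 0.32). The Gstm3 gap lay in few cells, since its median cell was at 37.3 and 72.6 CPM in Pard3HMKO and 38.9 and 99.8 in Pard3WT. At least 50% of the control Gstm3 reads came from 4 and 6 cells, with the highest cells at 8486 and 4749 CPM. The transferases are close paralogues, and reads may be shared among them.

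Chaperone genes changed in both directions. In the cytosolic heat shock list, 6 of 16 fell and 0 rose (median -0.24), among them Hspa8, the constitutive HSC70, at 754 and 602 CPM in Pard3HMKO and 1665 and 1568 in Pard3WT (-1.25 ± 0.10, adjusted p = 1.07e-11), and its cochaperone Dnaja1, at 192 and 153 against 327 and 386 (-1.05 ± 0.12). The list of the integrated stress response and chaperones of the endoplasmic reticulum had 8 rises and 8 falls of 24 (median -0.25). Rises numbered 5 without Pard3HMKO library 1, and falls 5 without Pard3HMKO library 2 and 4 without Pard3WT library 1. Pdia3 and Pdia6, disulfide isomerases of the endoplasmic reticulum, were at 290 and 305 against 123 and 123 CPM (1.27 ± 0.08, adjusted p = 8.48e-14) and at 201 and 166 against 69.3 and 61.0 CPM (1.49 ± 0.10). Psat1, of serine synthesis, was at 21.5 and 20.4 CPM against 41.8 and 36.3 (-0.90 ± 0.12), and Mthfd2, of mitochondrial folate, at 2.91 and 1.21 against 18.1 and 28.7 (-3.46 ± 0.52, adjusted p = 6.19e-06). The 8 rises were Hspa5, Hsp90b1, Calr, Pdia3, Pdia4, Pdia6, Sdf2l1 and Creb3l3, and the 8 falls were Trib3, Asns, Psat1, Phgdh, Shmt2, Mthfd2, Dnajc3 and Herpud1. The call of Hspa5, the chaperone BiP, was lost without Pard3HMKO library 1 (0.17, adjusted p = 0.22), and that of Trib3, a pseudokinase, without any 1 library (adjusted p from 0.0579 to 0.296).

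**Figure D4:**
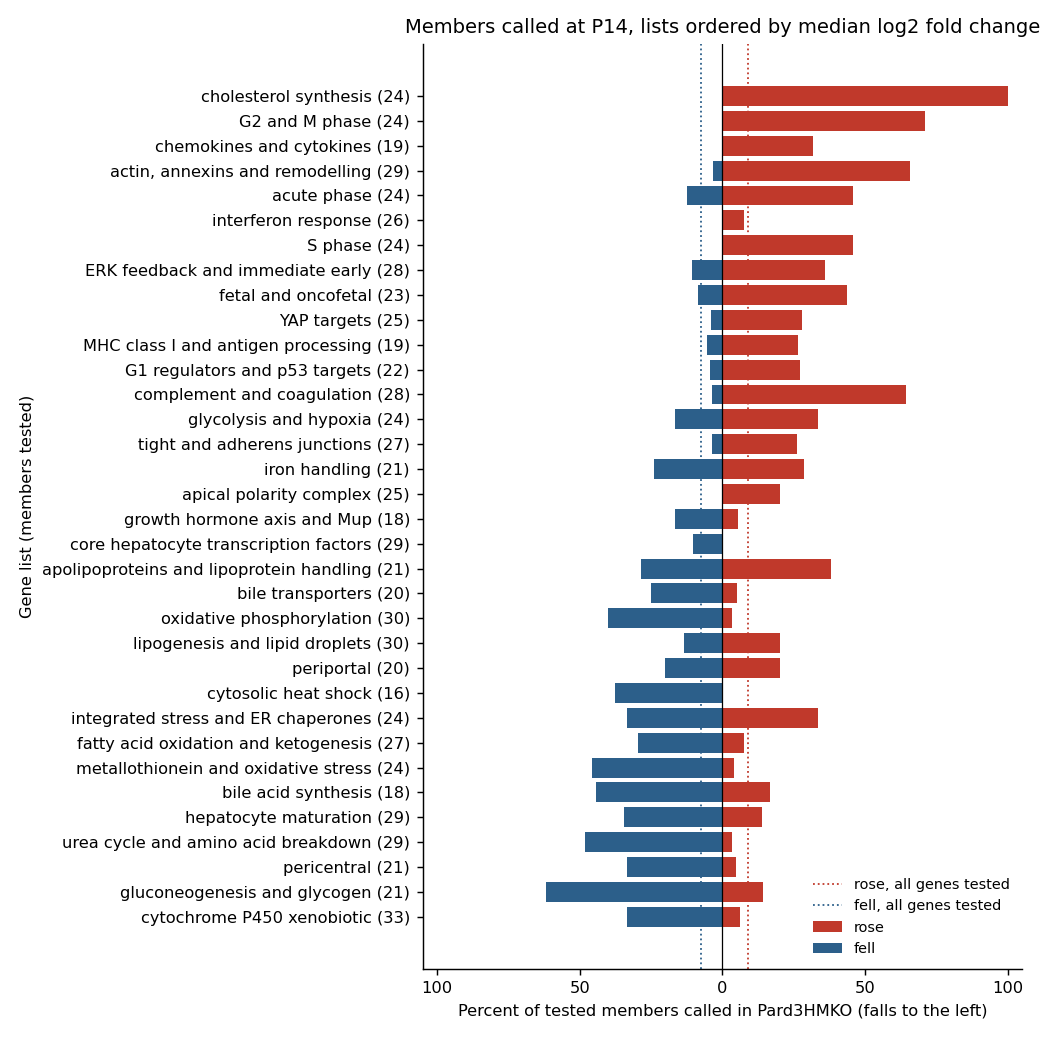
For each of the 34 gene lists, with the number of members tested in parentheses, bars to the right give the percent of members that rose at P14 in Pard3HMKO and bars to the left the percent that fell; dotted lines mark 8.99% and 7.67%, the shares over all 18572 genes. Lists are ordered by their median log2 fold change, from cholesterol synthesis (2.88) at the top to cytochrome P450 genes (-0.96) at the bottom.

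The P14 differences were then set beside those of the same line at earlier ages, from other libraries. The TMM factors of knockout and control libraries were unlike at the earlier ages. They were 1.10 and 1.03 against 0.782 and 0.764 at P0, and 0.983 and 1.10 against 0.659 and 0.614 at E17.5. At P14 they were 0.916 and 0.920 against 0.900 and 0.930. A higher factor lowers the CPM, so small knockout falls at P0 and E17.5 depend on this scaling. Knockout and control differed at 4050 genes at P0 (21.8%; 10.5% higher and 11.3% lower), at 2776 at E17.5 (14.9%; 7.09% higher and 7.86% lower) and at 1291 at E19.5 (6.95%; 3.01% higher and 3.94% lower). Of the 1670 rises at P14, 631 also rose at P0 (37.8% of the P14 rises and 32.2% of the P0 rises) and 230 fell there (13.8% of the P14 rises). Of the 1424 falls, 508 also fell at P0 (35.7% and 24.3%) and 159 rose (11.2%). Over all 18572 genes, which are not independent of each other, the log2 fold changes at P14 correlated with those at P0 with r = 0.0882 and with those at E17.5 with r = 7.08e-05. The sexes of the libraries differ by age as well: at P0 and E17.5 the knockout libraries held both Xist and Y-linked reads and the controls Y-linked reads with Xist at or near 0, and at E19.5 the knockout libraries held Xist alone and the controls both.

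The test of the difference itself called 2899 genes between P14 and P0 (15.6%), with 1698 higher (9.14%) and 1201 lower (6.47%) at P14. Between P14 and E17.5 it called 2721 (14.7%), 1513 higher (8.15%) and 1208 lower (6.5%), and between P14 and E19.5 2263 (12.2%; 6.69% higher and 5.5% lower). Cholesterol synthesis was raised at both postnatal ages. At P0, 20 of its 24 genes rose and 1 fell (median 1.88), at E17.5 6 rose and 4 fell (median -0.07), and the P14 change exceeded that at P0 for 18 genes and that at E17.5 for 23. Fdps was an example, with 857 and 731 CPM against 79.8 and 76.6 at P0 (3.34 ± 0.15) and 963 and 1036 against 1318 and 1494 at E17.5 (-0.49 ± 0.14), and at P14 both genotypes were lower than at P0. The small Fdps change at E17.5 depends on the TMM factors given above.

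At P0, 9 of the 23 fetal genes rose and 4 fell (median 0.28), and the P14 change was higher for 6 and lower for 3, with Afp and Igf2 among the 6. Afp was at 39122 and 43775 CPM in Pard3HMKO and 21740 and 23518 in Pard3WT at P0 (0.87 ± 0.13), and the P14 change exceeded this by 3.95 ± 0.19 (adjusted p = 2.4e-13). Igf2 was at 2067 and 2013 CPM against 2155 and 2216 at P0 (-0.10 ± 0.07, adjusted p = 0.35), and exceeded it by 3.82 ± 0.10. Knockout Igf2 at P14 (2222 and 2173 CPM) was thus near its P0 level, while control Igf2 was at 167 and 166. Knockout Afp had dropped since P0 as well, to a level far above that of the P14 control.

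Plasma protein genes reversed with age. Complement and coagulation genes had 20 falls and 3 rises of 28 at P0 (median -1.02) and 23 falls and 0 rises at E17.5 (median -1.04), against 18 rises and 1 fall at P14, and the change from P0 to P14 was upward for 22. C3 was at 1301 and 1437 CPM against 4722 and 4654 at P0 (-1.78 ± 0.11) and at 1118 and 882 against 1613 and 1522 at E17.5 (-0.65 ± 0.11), and the P14 change exceeded that at P0 by 3.27 ± 0.15 (adjusted p = 9.4e-15). The falls at E17.5 depend on the TMM factors given above, which lower knockout CPM at that age. They were not repeated on library totals. Cyp8b1 was at 16.0 and 15.8 CPM against 181 and 192 at P0 (-3.55 ± 0.29), and its change at P14 exceeded this by 4.88 ± 0.39. Both genes thus went from below the control at birth to above it on day 14.

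**Figure D5:**
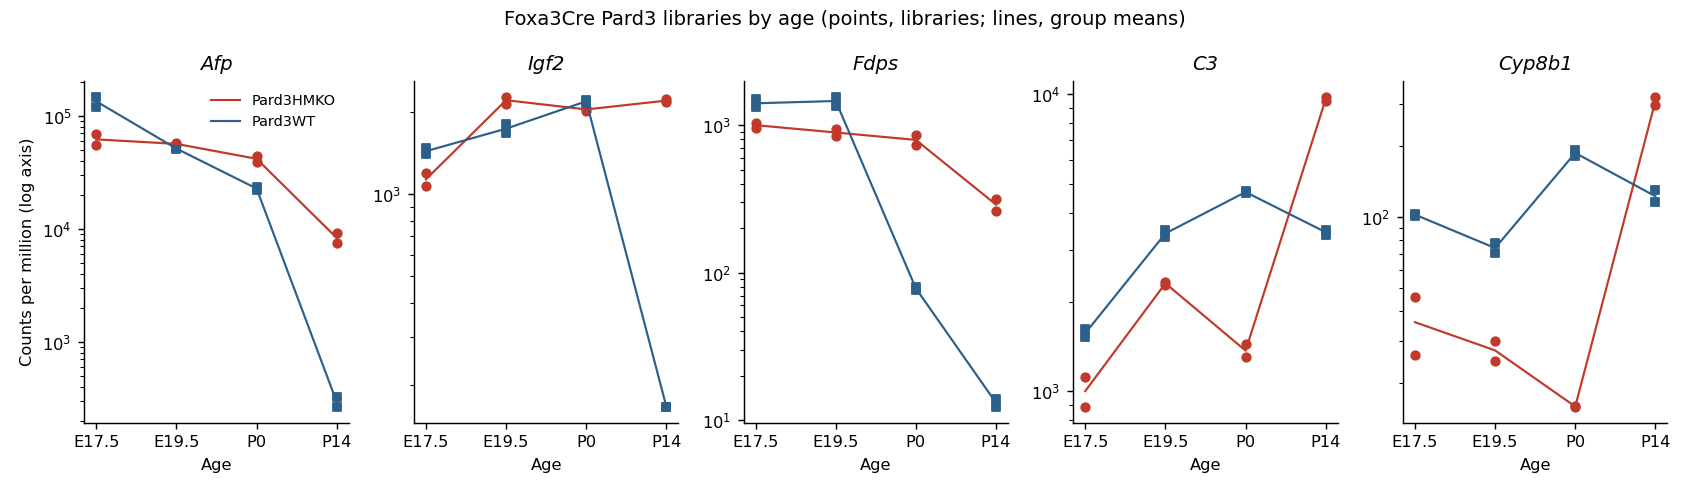
CPM on a log axis of 5 genes at E17.5, E19.5, P0 and P14 in the Foxa3Cre Pard3 libraries, each a point, with lines through the group means (Pard3HMKO red, Pard3WT blue); ages are different libraries. Control Igf2 drops from 2155 and 2216 at P0 to 167 and 166 at P14 while the knockout stays at 2222 and 2173, and C3 and Cyp8b1 are below the control at P0 and above it at P14.

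Several metabolic lists had more falls at P0 than at P14. Xenobiotic cytochrome P450 genes had 25 falls of 33 at P0 (median -3.83) and 11 at P14, with the P14 change higher for 18 and lower for 0. Fatty acid oxidation had 27 falls of 27 at P0 (median -2.32) and 8 at P14, with 22 higher. Urea and amino acid genes had 17 falls and 3 rises of 29 at P0 (median -1.24) and 14 falls at P14, with 12 changes higher and 7 lower. Lipogenesis had 11 falls of 30 at P0 and 4 at P14, and oxidative phosphorylation 23 of 30 and 12, whereas gluconeogenesis and glycogen had 9 of 21 and 13. Medians were -0.77 at P0 and -0.18 at P14 for lipogenesis, and -0.57 and -0.17 for oxidative phosphorylation. The P0 counts in this paragraph rest on the TMM factors given above and were not repeated on library totals. Lists with small changes, such as oxidative phosphorylation, depend most on that scaling. Arg1 was at 104 and 124 CPM against 956 and 927 at P0 (-3.04 ± 0.22), and its change at P14 did not differ from this by the test (0.35 ± 0.28, adjusted p = 0.48). Gstm1 differed in direction, at 859 and 923 CPM against 294 and 317 at P0 (1.54 ± 0.11) but lower at P14, a difference of -3.27 ± 0.15 (adjusted p = 8.1e-17). The 200 genes that fall from P0 to P60 in controls had 52 rises and 79 falls at P0 (median -0.61) against 87 rises and 20 falls at P14.

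Cell cycle genes were already higher in the knockout at P0, where 24 of the 24 G2 and M phase genes rose (median 3.10). None of them differed between P14 and P0 by the edgeR test of the difference (0 higher and 0 lower), and at E17.5 3 rose (median 1.16). Ccnb2 was at 69.5 and 100 CPM against 6.85 and 5.68 at P0 (3.76 ± 0.44), with a change from P0 to P14 of -0.84 ± 0.58 (adjusted p = 0.39). For Anxa2 the knockout was lower at E17.5 (253 and 280 CPM against 489 and 584, -1.01 ± 0.16) and higher at P0 (233 and 275 against 37.7 and 53.3, 2.48 ± 0.17), and the P14 change exceeded that at P0 by 1.27 ± 0.23 (adjusted p = 0.00014). The size of the Anxa2 fall at E17.5 depends on the TMM factors given above, which lower knockout CPM at that age.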

How the data were processed

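The authors deposited a table of read counts per gene and cell (40824 genes, 4264 cells), of which the 4 libraries described here hold 172 cells. Per the submitters' processing notes, FastQC 0.11.9, Trimmomatic 0.39 and HISAT2 2.1.0 were used with GRCm38/mm10; the tool and gene models used for counting are not stated there. Per the labels' protocol, cells of endodermal and gut tissue at early somite stages were stained for EpCAM and sorted; how hepatocytes were isolated is not given in the sources used here. Counts were summed per library. Of the cells, 2110 in 46 libraries were used, and 2154 cell columns and 92 spike-in rows were not.

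Genes passing filterByExpr were fitted with edgeR 4.0.16 (R 4.3.3; TMM, quasi-likelihood F test, robust) over 44 Foxa3Cre and AlfpCre libraries in 22 groups, with Benjamini-Hochberg adjustment and a threshold of 0.05; SE is the log2 fold change over the square root of F. All libraries were fitted together to share the estimate of spread. The 44 also include Foxa3Cre libraries labelled YapHMKO, YapWT, Pard3HMKO YapHMKO and Pard3WT YapWT. Foxa3Cre Pard3 libraries at E11.5, E13.5 and E15.5 and AlfpCre Pard3 libraries at E17.5 are among them too. The difference between ages was a contrast of the same fit. For shares of cells, each cell was thinned to 130000 reads. Cells have no barcodes in the table, and 0 of 172 have a count column identical to another.

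Named genes were Pard3, Alb and Afp, the 8 largest called rises and 8 largest falls that reached 10 CPM in either genotype without overlapping, up to 4 per list by adjusted p, and 4 per direction for each contrast between ages. Hmgcs1, Idi1, Msmo1, Insig1, Srebf2, Sc5d, Igf1, Igfbp2, Cps1, Glul, Mki67, Mthfd2, Actb, Foxa3, Hbegf, Prkci, Prkcz and Cldn7 were chosen after their values were seen, as were members named without values. Some genes that these rules name are not reported here. The 34 gene lists and their members were chosen with earlier results of these data known. Alternatives were other scaling (DESeq2 1.42.0 among them), no filter, a replicate block, only the libraries compared, equal weight per cell, and leaving out libraries or cells. On simulated counts of 17847 genes for the P14 comparison, 61 of 100 genes changed by a log2 of 1 and 99 of 100 changed by 2 were recovered, and 6 of 17647 unchanged genes were called. The changed genes were drawn among those at 10 CPM or more, and the simulated spread followed the fitted trend alone. These rates therefore do not cover genes with few reads or genes whose reads come mostly from 1 cell.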

Additional observations from a re-analysis of the deposited data

Results flagged for a closer look

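The P14 difference between Pard3HMKO and Pard3WT differed from the P0 difference at 2899 genes and from the E17.5 difference at 2721 genes, by edgeR's test of the difference with Benjamini-Hochberg adjustment. The largest such genes in each direction are given here as log2 differences between the ages' fold changes, with group means in CPM; where a group has no read the fitted value depends on the prior count and is no bound on the change.

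Against P0, Slc51b, the basolateral bile acid exporter subunit, differed by 14.76 (28.2 in Pard3HMKO and 3.28 in Pard3WT at P14, 0 and 12.7 at P0). Slc37a1, a sugar phosphate transporter, differed by 13.60 (12.0 and 1.45 at P14, 0 and 5.93 at P0). These 2 genes were higher in the knockout at P14 and had no knockout read at P0. Ankrd55 differed by 14.35 (0.729 and 0.329, then 0 and 38.2) and Cidec, a lipid droplet protein, by 12.92 (7.53 and 8.70, then 0 and 35.1), and at P14 their groups were close. Downward, Vcp-rs differed by -12.78 (0.297 and 35.9 at P14, 21.3 and 0.365 at P0), H2-T10, a class I gene, by -11.40 (1.01 and 16.1, then 8.16 and 0.0438) and Adm2 by -8.98 (0.0177 and 11.3, then 4.35 and 3.83). Serpina6, which carries glucocorticoids in plasma, differed by -7.71, with 143 and 224 at P14 and 3413 and 25.7 at P0.

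Against E17.5, Plat differed by 16.33 (12.0 and 0 at P14, 0 and 0.0998 at E17.5), Ttyh1 by 13.59 (21.9 and 0.518, then 0 and 1.15) and Zbtb8b by 9.30 (0.479 and 0, then 2.47 and 12.1). Hamp, hepcidin, differed by 9.91, from 20.7 in Pard3HMKO and 192 in Pard3WT at E17.5 to 145 and 1.41 at P14. Its order was thus reversed between the ages. Dnase1l3 differed by -14.82 (10.6 and 134 at P14, 9.05 and 0 at E17.5) and Mrc1, a macrophage receptor, by -8.46 (1.82 and 19.1, then 1.23 and 0.0286). Dnase1l3 and Mrc1 are made by nonparenchymal cells of the liver, whose markers were present in all libraries. Without the P14 cells that held such markers, the P14 log2 fold changes of Dnase1l3 and Mrc1 were 1.02 and 1.37 (adjusted p = 0.85 and 0.66), against -3.66 and -3.39 with them. In the control libraries 1 cell gave 93.5% and 67.4% of the Dnase1l3 reads. Thrsp differed by -8.32 (0.235 and 29.3, then 4.69 and 1.72).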

How the results depend on the processing

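Genes called at P14 numbered 2093 to 2404 when 1 library at a time was left out, against 3094, and the contrasts with P0 and E17.5 called 2239 to 2446 and 2149 to 2331, against 2899 and 2721. With library totals and no TMM factor, the contrast with E17.5 called 4140 genes, and with each cell weighted equally 4526; the cause was not tested. With totals the share of calls that were higher at P14 was 29.6% for the contrast with P0 and 15.9% for that with E17.5, against 58.6% and 55.6%, and the medians over all genes were -0.21 and -0.61, against 0.13 and 0. The share with equal cell weight was 34.2% and 18.6%. Using only the libraries compared, 48.6% of the P14 calls were higher, against 54.0%. Among P14 results, 1976 to 2160 of the 3094 genes were called without a given library. Of 176 named genes called, 172 kept the call with DESeq2 and 153 with only the libraries compared. Once cells with other types' markers were left out, 166 kept it. Once cells holding at least 8 G2 and M phase genes were left out, 164 did.

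With all reads, 94.3% and 100% of Pard3HMKO cells and 62.5% and 54.4% of Pard3WT cells held at least 50% of a marker list of another type, and 100%, 100%, 100% and 94.7% held at least 30%. Thinned to equal depth, the shares of cells with G2 and M phase genes were 28.6%, 50% and 8.93% in Pard3HMKO library 1, Pard3HMKO library 2 and Pard3WT library 1. Cidec (P14 log2 fold change -0.21) reversed to 0.34 without Pard3HMKO library 1 and was -1.12 without library 2, and Dnase1l3 (1.02) and Mrc1 (1.37) reversed without cells holding markers of other types; the cause was not tested. Leaving out every cell with at least 50% of such a list at full depth gave no value, since Pard3HMKO library 2 kept 0 cells.

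With the replicate number as a block, 2737 genes were called at P14, 2444 against P0 and 2352 against E17.5. The labels do not say that a number marks a shared animal or day, and the deviations of same-numbered libraries correlated with r = -0.0215 over 18572 genes. Depth limits genes with few reads: calls of those at 0 in a group rest on single cells in several cases.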
